A study of Danio rerio with 6 samples.

Results

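The 10 genes described here are effectors and feedback genes of canonical Wnt signalling: wls, lrp5, lrp6, axin1, axin2, ctnnb1, lef1, tcf7, tcf7l2 and nkd1. They were chosen by name, and all 10 were found by symbol among the 34289 Ensembl genes of the deposited tables. All 10 also passed the filter on low counts that left 12855 genes to test. The libraries came from osteoblasts, the bone-forming cells, of regenerating zebrafish scales collected 4 days after plucking. For every sample 50 scales were plucked per side, in 3 rows per side, and digestion lasted 1 h. Every fish carried 2 reporters under osterix (osx, sp7) regulatory sequence, which drives both in osterix-expressing cells: H2A-mCherry, which marks nuclei, and Venus-hGeminin, which accumulates in S, G2 and M phase. From live mCherry-positive cells, those without Venus-hGeminin signal (Geminin-negative, the negative gate below) and those with it (Geminin-positive, the positive gate) were sorted, giving 3 libraries per gate. Each sample pooled 3 to 5 fish. Strain and age are not in the labels. Sample labels name the positive gate as high in Erk activity, whereas the design text gives an inverse relation, so the groups are named here by gate.

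In canonical Wnt signalling a secreted Wnt ligand binds a Frizzled receptor and an Lrp5 or Lrp6 co-receptor at the cell surface. Without ligand, a destruction complex built on Axin marks β-catenin for degradation. With ligand, β-catenin accumulates, enters the nucleus and acts with Tcf/Lef transcription factors. Several of its target genes, axin2 and nkd1 among them, encode inhibitors that dampen the pathway. In bone the pathway is known to promote the formation of osteoblasts, and in mammals changes in LRP5 or in the inhibitor sclerostin alter bone mass.

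Total counts ranged from 15854710 to 34472612 per library, and between 11977 and 17875 genes had at least 1 count. The gate was checked with geminin itself: gmnn had 398 ± 30.4 CPM (read counts scaled to library size, with TMM factors) in the negative gate and 1556 ± 66.7 CPM in the positive gate (SD, n = 3 each; adjusted p = 0.01057 by edgeR). Of 14 osteoblast markers 13 were tested, and their summed level was 106903 to 208641 CPM in the negative gate and 285849.8 to 554595 CPM in the positive gate, led by col1a2 and col1a1a. Of the 13 markers 7 had a log2 fold change above 0 and 6 below, with a median of 0.02, and 2 were called higher, both type I collagen genes (col1a1a and col1a1b). Over all genes tested 0.124% were called higher. G2/M markers, led by cdk1 and aurkb, summed to 22.3 to 56.2 CPM and 269.6 to 511 CPM, with 11 of 11 tested above 0 and 0 called. Their median log2 fold change was 3.14. Of the 11, 9 were higher in the positive gate without overlap, and 6 had an unadjusted p under 0.05 by edgeR. Over all genes tested these shares were 8.09% and 3.64%. A gene that was not called is thus not shown to have equal levels in the gates. The osteocalcin gene bglap was near 0 in both groups (0.114 and 0.0449 CPM), but 286 of the 372 exon bases of its row are shared with another row on the same strand, where the counting may have dropped reads. Leukocyte markers were also present, with a summed level of 2496 to 3445 CPM in the negative gate and 81.7 to 228 CPM in the positive gate. On the first principal component (31.3% of the variance) the gates were separate. Negative gate replicates 1 to 3 lay at -15.6, -56.6 and -203.4, and positive gate replicates 1 to 3 at 72.5, 108.3 and 94.8. Geminin-negative replicate 3 stood apart from the rest, and values of the 10 genes without it are given below. Labels do not say whether the samples of a group came from separate pools of fish, so p-values measure the spread between these samples.

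None of the 10 Wnt genes differed between the gates at an adjusted p of 0.05 in edgeR's quasi-likelihood test. Over all genes tested 0.607% passed, 0.124% with higher and 0.482% with lower levels in the positive gate. No member had an unadjusted p under 0.05 either, against 9.4% of all genes (3.64% higher, 5.76% lower). DESeq2 and limma-voom each called 0 of the 10, beside 626 and 97 of all 12855 genes tested. Log2 fold changes, Geminin-positive over Geminin-negative, were below 0 for 7 members and above 0 for 3, with a median of -0.22 beside -0.01 over all genes tested. Below 0 were 50.4% of all genes tested. The CPM ranges of the gates did not overlap for lef1 and tcf7, both lower in the positive gate, as was the case for 10.3% of all genes tested. Another 8.09% had separate ranges with higher levels in the positive gate, 18.4% in all. Without Geminin-negative replicate 3 the log2 fold changes were -0.58 for wls, -0.55 for lrp5, 0.11 for lrp6, 0.22 for axin1 and -0.25 for axin2. They were then -0.24 for ctnnb1, -1.85 for lef1, -1.18 for tcf7, -1.12 for tcf7l2 and -0.32 for nkd1, with 0 of the 10 called. Of these only nkd1 changed sign against the fit of all 6 libraries.

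**Figure D1:**
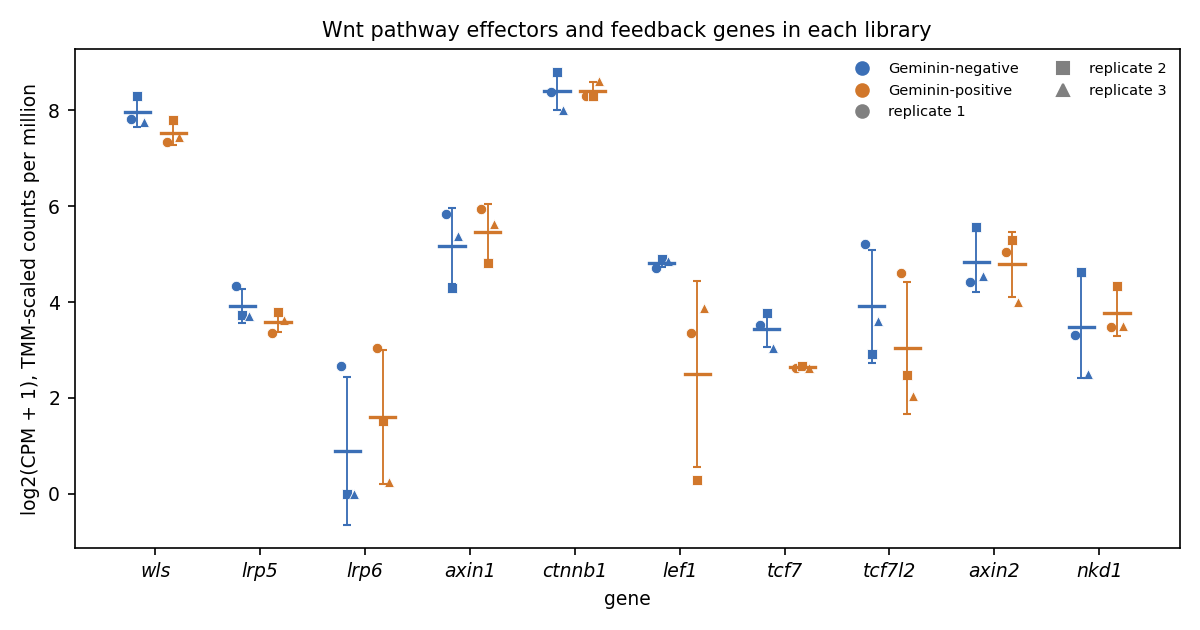
Level of the 10 Wnt genes in each of the 6 libraries, as log2(CPM + 1); symbols give replicates, and the bar and whiskers give the mean and SD of the 3 log2 values of a gate. Only lef1 and tcf7 have no overlap between gates, and lrp6 is at 0 in 2 Geminin-negative libraries.

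The gene for the ligand carrier was among the most abundant members. wls encodes Wntless, the membrane protein that carries Wnt ligands to the cell surface (ENSDARG00000009534, danRer10 chromosome 2, 10555880 to 10603459). Its level was 224, 315 and 214 CPM in negative gate replicates 1 to 3 and 160.4, 221 and 173 CPM in positive gate replicates 1 to 3. Geminin-positive replicate 2 lay just above the lowest Geminin-negative library, so the gates overlapped. On the log2 scale the difference was -0.44 (SE 0.26, 95% interval -1.04 to 0.16; adjusted p = 0.8061 by edgeR). With libraries scaled by total counts alone it was -0.92, where the median gene lay at -0.47. Without Geminin-negative replicate 2 it was -0.28. Of the 5563 exon bases of the wls row, 357 are shared with a row on the other strand, and the strand setting of the counting is not given in the sources used here.

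The co-receptor genes had low levels. lrp5 (ENSDARG00000006921, chromosome 25, 10546357 to 10672087) had 19.2, 12.3 and 12.1 CPM in the negative gate and 9.21, 12.8 and 11.3 CPM in the positive gate. Only Geminin-negative replicate 1 stood above the range of the others, and the difference did not pass the test (log2 fold change -0.39, SE 0.61, 95% interval -1.78 to 1; adjusted p = 0.9999 by edgeR). lrp6 (ENSDARG00000100143, chromosome 4, 168033 to 195214) was the least abundant and the least evenly detected member. It had 105, 0 and 0 counts in negative gate replicates 1 to 3 and 113, 26 and 3 counts in positive gate replicates 1 to 3. Replicate 1 of each gate thus held most of the lrp6 counts, and the interval of its log2 fold change, -5.36 to 6.92, spanned large changes in both directions. Its log2 fold change of 0.78 was 9.01 without replicate 1 of the negative gate and -0.78 without replicate 1 of the positive gate. It was the only member with at least 100 counts in 1 library and 0 in another of the same gate, which 21.6% of such genes in the negative gate and 12% in the positive gate showed over the whole tables.

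Axin proteins are the scaffold of the destruction complex; axin1 is broadly expressed, and axin2 is a classical Wnt target gene that acts in negative feedback. axin1 (ENSDARG00000102964, chromosome 3, 42878567 to 42949272) had 55.7, 18.6 and 40.6 CPM in the negative gate and 60.5, 27 and 48.4 CPM in the positive gate. Replicate 2 was the lowest library in each gate, and the gates overlapped. The fitted log2 fold change was 0.24 (SE 0.49, 95% interval -0.88 to 1.36; adjusted p = 0.9999 by edgeR), and -0.22 with scaling by total counts alone. axin2 (ENSDARG00000100149, chromosome 3, 55378093 to 55399162) had 20.3, 46.4 and 22.3 CPM in the negative gate and 32.1, 38.4 and 15.1 CPM in the positive gate. Replicate 2 was here the highest library in each gate. For axin2 the log2 fold change was -0.06 (SE 0.51; adjusted p = 0.9999 by edgeR), with an interval of -1.23 to 1.12. It was 0.4 without replicate 2 of the negative gate and 0.25 without replicate 3 of the positive gate. As a share of the summed CPM per kb of the Axin pair, axin2 made up 24.9%, 69.4% and 33.4% in negative gate replicates 1 to 3 and 32.6%, 56.5% and 22.1% in positive gate replicates 1 to 3. In both gates axin2 exceeded axin1 per kb only in replicate 2. The labels do not link same-numbered libraries of the gates, here or for the genes below.

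β-catenin, the transducer of the signal and also a part of adherens junctions, is encoded by ctnnb1 (ENSDARG00000014571, chromosome 16, 6281340 to 6304825). ctnnb1 had 332, 444 and 256 CPM in the negative gate and 311, 311 and 389 CPM in the positive gate. All 3 Geminin-positive values fell inside the Geminin-negative range. Its log2 fold change was -0.03 (SE 0.27, 95% interval -0.64 to 0.59; adjusted p = 0.9999 by edgeR). Under TMM scaling this bounds a change in the reads counted for its row at between 0.64 and 1.5 times. By total counts alone the log2 fold change was -0.48, where the median gene lay at -0.47. With TMM scaling and 1 library left out at a time it ranged from -0.24 to 0.16. Of the 3776 exon bases of its row, 1211 are shared with 2 rows on the other strand, among them ulk4, so reads there could not be told apart without a stated strand. Its copy ctnnb2 had 90.4, 58.1 and 16 CPM against 35.1, 64.9 and 51.3 CPM, and again the gates overlapped (log2 fold change -0.12, SE 0.57; adjusted p = 0.9999 by edgeR). Per kb of exon, ctnnb1 made up 81.6% ± 10.5 of the β-catenin pair in the negative gate and 81.3% ± 5 in the positive gate (SD, n = 3 each).

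**Figure D2:**
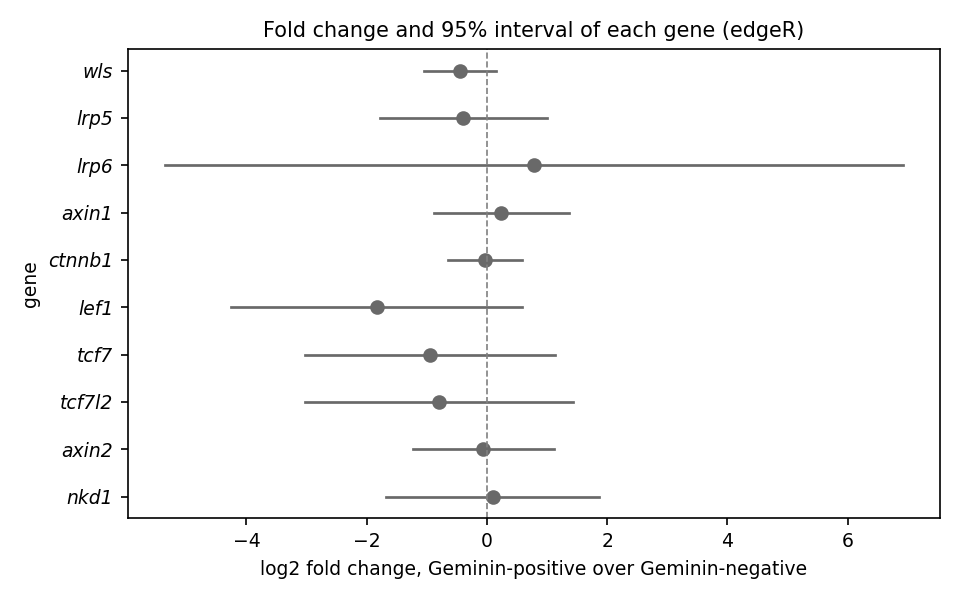
Log2 fold change of each gene, Geminin-positive over Geminin-negative, as a point with its 95% interval from the edgeR fit over 12855 genes. All 10 intervals include 0; the SEs of wls (0.26) and ctnnb1 (0.27) are the smallest, and the interval of lrp6 runs from -5.36 to 6.92.

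The genes of the Tcf/Lef factors, the DNA-binding partners of β-catenin, had the lowest log2 fold changes of the 10. lef1 (ENSDARG00000031894, chromosome 1, 49170635 to 49259661), which encodes a factor that mainly activates targets and is itself a Wnt target, had 25.3, 28.7 and 27.9 CPM in negative gate replicates 1 to 3. In positive gate replicates 1 to 3 it had 9.21, 0.216 and 13.6 CPM. Every Geminin-positive library was below every Geminin-negative library, and replicate 2, with 3 counts, stood far below the other Geminin-positive libraries. The coefficient of variation of lef1 was 6.47% in the negative gate and 88.9% in the positive gate. The log2 fold change was -1.83 (SE 1.06, 95% interval -4.25 to 0.59) and missed the threshold, with an adjusted p of 0.7921 by edgeR. Without Geminin-positive replicate 2 it was -1.25 (adjusted p = 0.6975 by edgeR). It stayed below 0 in all 13 alternative fits, and the lowest adjusted p over them was 0.3423. It was -2.97 with limma-voom. These fits reuse the same libraries, so with separate ranges the sign had little room to turn.

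The other factor gene without overlap was tcf7 (ENSDARG00000038672, chromosome 21, 45227301 to 45296307), with 10.5, 12.6 and 7.2 CPM in the negative gate and 5.21, 5.34 and 5.14 CPM in the positive gate. The Geminin-positive values lay close together, all below the lowest Geminin-negative one. The log2 fold change of tcf7 was -0.95 (SE 0.92, 95% interval -3.03 to 1.13; adjusted p = 0.9999 by edgeR), and it was below 0 in all 12 alternative fits that kept the gene. As for lef1, separate ranges left that sign little room to turn. tcf7l2 (ENSDARG00000004415, chromosome 12, 30864834 to 30988414) had 36.1, 6.54 and 11.1 CPM in the negative gate and 23.3, 4.54 and 3.13 CPM in the positive gate. Replicate 1 was the highest library in each gate, and the gates overlapped. For tcf7l2 the log2 fold change, -0.79 (SE 0.97, 95% interval -3.02 to 1.43; adjusted p = 0.9999 by edgeR), turned to 0.24 without replicate 1 of the negative gate and was -2.21 without replicate 1 of the positive gate.

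lef1 and tcf7 are also expressed in lymphocytes, in which both factors act in T cell development, and leukocyte markers moved with the gate. Of 20 matched leukocyte markers, led by cd74a and cd74b with cd79b at 0, 15 were tested, of which 14 had a log2 fold change below 0 and 5 were called lower. Over all genes tested 50.4% were below 0 and 0.482% were called lower. Of the 15 leukocyte markers, 13 had lower levels in the positive gate with an unadjusted p under 0.05 by edgeR. In 13 the levels were lower there without overlap. Over all genes tested these shares were 5.76% and 10.3%. The T cell kinase gene lck had 4.6, 0 and 4.77 CPM in the negative gate and 0 counts in all Geminin-positive libraries. The T cell co-receptor gene cd4-1 had 12, 0.412 and 8.19 CPM against 2.41, 0 and 0 CPM, and cd8a had 5.06, 0.302 and 0 CPM against 1.4, 0 and 0.376 CPM. These T cell genes were chosen after their values were seen. In Geminin-negative replicate 2 they had 0, 0.412 and 0.302 CPM, and lef1 and tcf7 had 28.7 and 12.6 CPM. The 3 T cell genes had low levels throughout. Of all genes with at least 100 counts in a Geminin-negative library, 21.6% had 0 in another, so their absence from 1 library is weak information. The whole leukocyte list summed to at least 2496 CPM in every Geminin-negative library, replicate 2 included. The part of leukocyte RNA in the lef1 and tcf7 differences between gates was not tested. In sorted bulk samples, fewer cells that express a gene and less of its RNA per cell cannot be told apart.

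The family has further members. tcf7l1a, which encodes a factor known mainly as a repressor, had 31.6, 0.192 and 17.1 CPM in the negative gate and 8.13, 2.88 and 6.02 CPM in the positive gate (log2 fold change -1.52, SE 1.34; adjusted p = 0.9999 by edgeR, and a log2 fold change of 1.51 with limma-voom). tcf7l1b had 17.8, 10.3 and 24.6 CPM against 9.85, 8.8 and 18.2 CPM, with overlapping gates. Summed per kb of exon, the 5 Tcf/Lef genes reached 37.6, 22.1 and 28.1 CPM per kb in negative gate replicates 1 to 3. In positive gate replicates 1 to 3 they reached 16.4, 7.62 and 15.1 CPM per kb, so the gates did not overlap in this sum, which was formed after the values were seen and was not tested. lef1 made up 23.1%, 44.6% and 34.1% of the sum in the negative gate and 19.3%, 0.976% and 30.9% in the positive gate, and these shares overlapped.

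**Figure D3:**
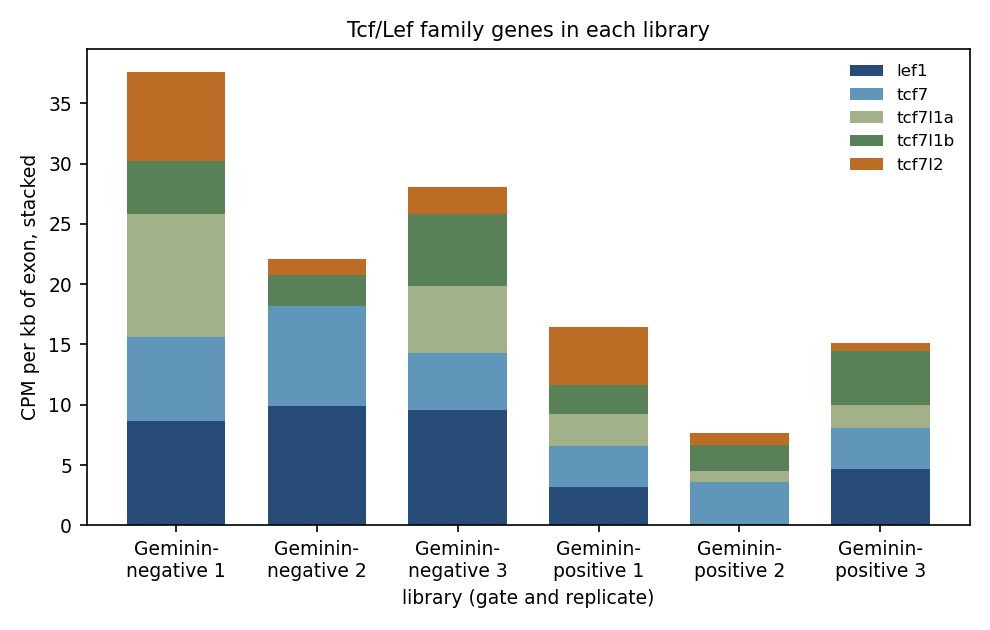
CPM per kb of exon of the 5 Tcf/Lef genes, stacked, in each library. The stacks reach 22.1 to 37.6 in the negative gate and 7.62 to 16.4 in the positive gate, and lef1 is nearly missing from Geminin-positive replicate 2 (0.976% of the stack).

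The feedback gene nkd1 encodes Naked cuticle, an antagonist that binds Dishevelled (ENSDARG00000020053, chromosome 7, 37311023 to 37351112). nkd1 had 8.95, 23.6 and 4.68 CPM in the negative gate and 10.2, 19.3 and 10.3 CPM in the positive gate. As for axin2, replicate 2 was the highest library of each gate. The log2 fold change of nkd1 was 0.1 (SE 0.77, 95% interval -1.67 to 1.86; adjusted p = 0.9999 by edgeR), and -0.36 with scaling by total counts alone. The classical feedback genes axin2 and nkd1 thus had log2 fold changes of -0.06 and 0.1, beside -1.83 for lef1; the difference between these genes was not tested.

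Levels of different genes were compared per kb of exon. In the negative gate ctnnb1 was highest, at 91.1 ± 25.2 CPM per kb, followed by wls at 45.1 ± 9.95 CPM per kb, and the ranges of these genes were separate from each other and from all below. lef1 was next at 9.39 ± 0.608 CPM per kb. From there axin1 (7.91 ± 3.85), tcf7 (6.69 ± 1.8), axin2 (5.57 ± 2.73), tcf7l2 (3.67 ± 3.27), nkd1 (2.42 ± 1.94) and lrp5 (1.65 ± 0.456 CPM per kb) formed a series in which each overlapped its neighbour. lrp6 stood below all others at 0.266 ± 0.46 CPM per kb. In the positive gate ctnnb1 (89.2 ± 11.9) and wls (33.2 ± 5.76 CPM per kb) again led without overlap. There lef1, at 2.64 ± 2.35 CPM per kb, came after axin1 (9.34 ± 3.51), axin2 (5.37 ± 2.27) and tcf7 (3.46 ± 0.0658 CPM per kb), with each of these genes overlapping its neighbour.

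lef1 had the smallest p of the 10 genes, so the genes with the most similar profile over the 6 libraries were sought among 6153 tested genes whose mean reached 10 CPM. The measure was the mean absolute difference of log2 CPM after centring each gene. The nearest were si:rp71-1c10.7 (0.34 log2 units), the mitochondrial alanyl-tRNA synthetase gene aars2 (0.35) and the mitochondrial transcription factor gene tfb2m (0.35). Like lef1, all of them were lowest in Geminin-positive replicate 2, at 1.44, 0.0721 and 0 CPM. The choice by similar profile selects for this trait. None of the 3 genes was called by edgeR (adjusted p = 0.5124, 0.8593 and 0.9999).

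The rest of the pathway was read from lists ordered by role, which held 135 genes, of which 115 were matched and 72 passed the filter. None of the 72 was called by edgeR, beside 0.607% of all genes tested. At an unadjusted p under 0.05 there were 4, wnt11, sfrp2 and wif1 with lower and bambia with higher levels in the positive gate. Over all genes tested 9.4% had such a p, 5.76% with lower and 3.64% with higher levels. Of the 72, 28 had a log2 fold change above 0 and 44 below 0, with a median of -0.34. The CPM ranges of the gates were separate for 3 with higher and 6 with lower levels in the positive gate. Over all genes tested these shares were 8.09% and 10.3%. DESeq2 called 2 of them lower, wnt11 and sfrp2, beside 4.87% of all genes in either direction and 3.36% lower. Limma-voom called 0 of the 72, beside 97 of all 12855 genes tested.

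**Figure D4:**
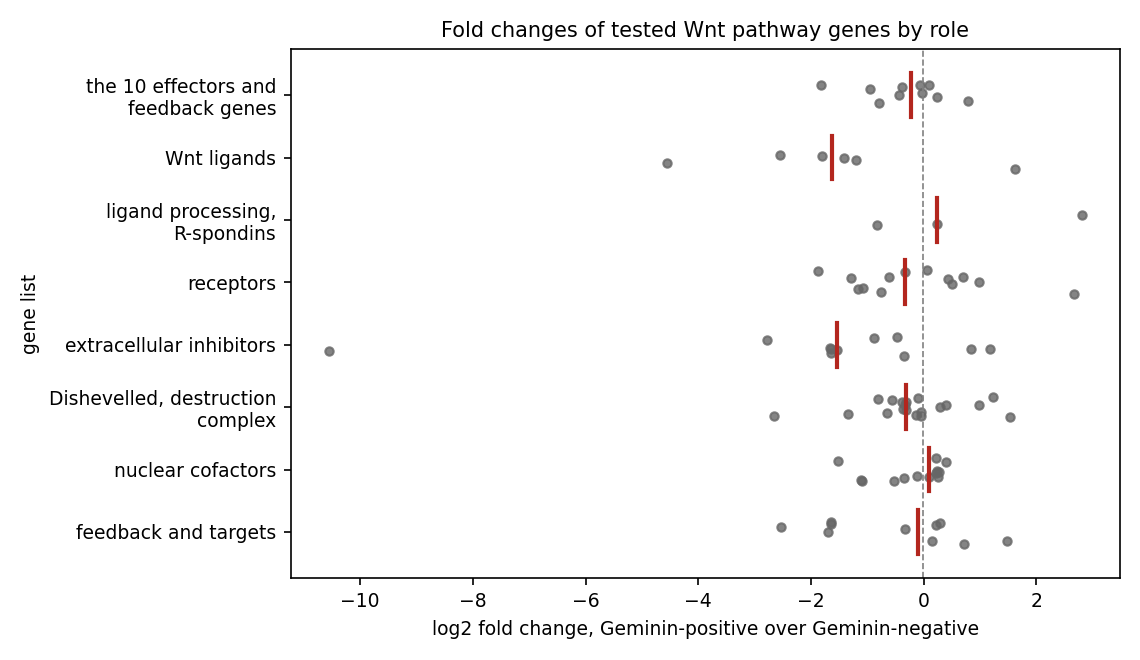
Log2 fold changes, Geminin-positive over Geminin-negative, of the tested genes by role; each point is a gene, red bars are list medians and the dashed line is the median of all genes tested (-0.01). Medians are -1.62 for 6 ligands and -1.53 for 11 extracellular inhibitors, and the point at -10.56 is sfrp2, a fitted value set by 0 counts in the positive gate.

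Among Wnt ligands, 24 of 25 listed genes were matched, 6 had 0 counts in every library and 6 passed the filter, with 1 log2 fold change above 0 and 5 below. wnt11, whose product acts mainly in β-catenin-independent signalling, had 155, 36.4 and 9.81 CPM in the negative gate and 3.56, 2.45 and 2.57 CPM in the positive gate. Its Geminin-negative values spread widely but stayed above all Geminin-positive ones. Its log2 fold change was -4.55 (SE 0.96, 95% interval -6.74 to -2.36), and the adjusted p of 0.09177 by edgeR missed the threshold. wnt11 was called in 3 of 13 alternative fits: with DESeq2 (adjusted p = 2.056e-05), with edgeR and no filter on low counts (2.694e-11) and with edgeR without Geminin-negative replicate 3 (0.04839). Without Geminin-negative replicate 1, which held the highest level, its log2 fold change was -3.01 (adjusted p = 0.2965 by edgeR), and the highest adjusted p was 0.5815 with limma-voom. wnt10a, a canonical ligand, had 4.76, 15.5 and 11.8 CPM against 3.11, 4.18 and 6.64 CPM, with overlapping gates. wnt1 had 3.02, 3.74 and 4.72 CPM against 0, 0 and 1.94 CPM, without overlap (adjusted p = 0.9999 by edgeR). wnt7bb had 20.5, 1.89 and 0 CPM against 1.78, 0 and 4.58 CPM.

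R-spondins, secreted proteins that raise Wnt receptor levels, gave 3 tested genes, with 0 called. rspo1 had 2.92, 0 and 0 CPM in the negative gate and 6.1, 6.2 and 8.15 CPM in the positive gate, without overlap (log2 fold change 2.81, SE 2.39; adjusted p = 0.9999 by edgeR). rspo2 and rspo4 overlapped between the gates, and rspo2 turned from 0.24 to -0.18 on the log2 scale without Geminin-negative replicate 3.

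Of the receptors and their turnover genes 13 were tested, 6 with a log2 fold change above 0 and 7 below, with a median of -0.34. The Frizzled gene fzd8b had 5.57, 8.82 and 7.02 CPM in the negative gate and 12.4, 16.6 and 13.2 CPM in the positive gate, without overlap (log2 fold change 0.98, SE 0.71; adjusted p = 0.9287 by edgeR). fzd7b had 43.4, 73.7 and 74.5 CPM against 28.2, 38.1 and 47 CPM, with overlap in a single pair of libraries (log2 fold change -0.76, SE 0.36; adjusted p = 0.6117 by edgeR). fzd8a (log2 fold change 0.51) and fzd10 (-1.16) overlapped between the gates.

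Genes listed as extracellular inhibitors of the pathway had a median log2 fold change of -1.53 over 11 tested genes, 2 above and 9 below 0. It was again -1.53 with sfrp2 set to its bound, which also lies below the median and so could not move it. sfrp2, a secreted Frizzled-related protein gene, had 20.2, 1.7 and 5.62 CPM in the negative gate and 0 counts in all 3 Geminin-positive libraries. Its mean was at least 139-fold lower there, against a floor of 3 counts over the group, and at least 55.6-fold lower without Geminin-negative replicate 1. It did not pass in the edgeR test with the filter (adjusted p = 0.1918 by edgeR) but passed with DESeq2 (adjusted p = 0.0001095) and with edgeR without a filter (0.009605), and the highest adjusted p over 12 alternatives was 0.4424. wif1, the Wnt inhibitory factor gene, had 20.3, 35.7 and 16.6 CPM against 10.4, 8 and 4.83 CPM, without overlap (log2 fold change -1.64, SE 0.6; adjusted p = 0.3693 by edgeR). sost, the sclerostin gene, a product of osteocytes in mammals that blocks Lrp5 and Lrp6, had 6.85, 15.9 and 10 CPM against 42.6, 15.4 and 16.5 CPM. It overlapped between the gates, and its log2 fold change of 1.18 (SE 0.62; adjusted p = 0.69 by edgeR) was 0.55 without Geminin-positive replicate 1. frzb had 30.9, 199.7 and 176 CPM against 149, 35.5 and 36.1 CPM, with no separation of the gates.

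**Figure D5:**
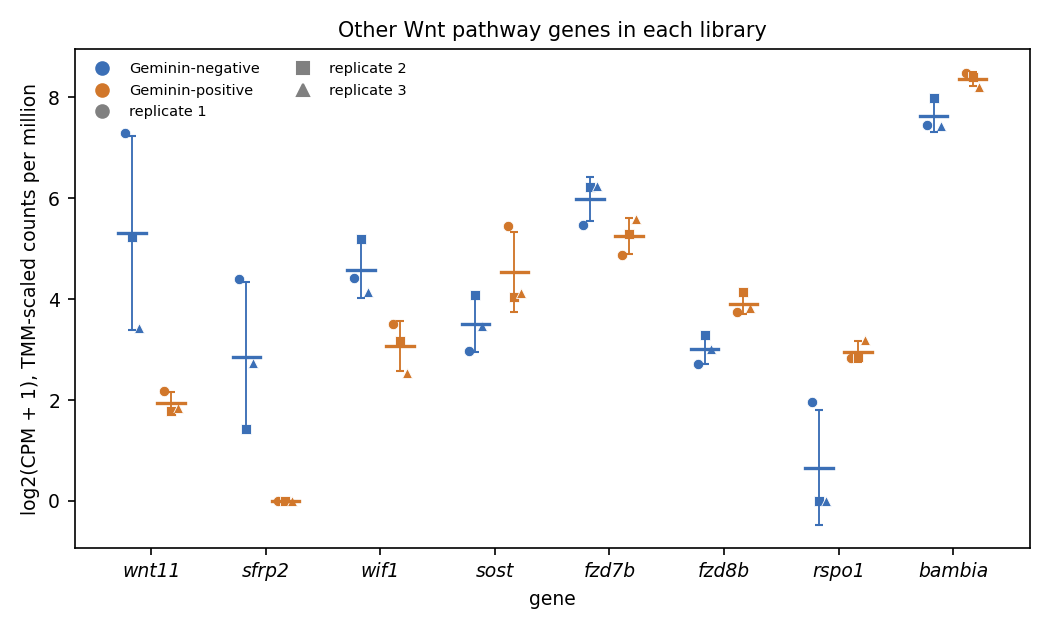
Level of 8 other Wnt pathway genes in each library, as log2(CPM + 1), with the mean and SD of the 3 log2 values of a gate. The gates do not overlap for wnt11, sfrp2, wif1, fzd8b, rspo1 and bambia, and they overlap for sost and fzd7b. The genes shown are among those with the smallest p of their lists. Of all 72 tested role genes, 3 had separate ranges with higher and 6 with lower levels in the positive gate. Over all genes tested these shares were 8.09% and 10.3%.

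Markers of other cell types were measured beside these secreted factors. Over all genes tested 50.4% had a log2 fold change below 0 and 0.482% were called lower. Of 14 tested fibroblast markers 10 had a log2 fold change below 0 and 0 were called. Their summed level was 2499 to 3656 CPM in the negative gate and 3973 to 8419 CPM in the positive gate, led by lum and pdgfrl. An unadjusted p under 0.05 by edgeR was found for 7 with lower and 2 with higher levels in the positive gate. Over all genes tested 5.76% and 3.64% had such a p. The CPM ranges were separate for 6 fibroblast markers with lower and 2 with higher levels, beside 10.3% and 8.09% of all genes tested. Keratinocyte markers summed to 925 to 4534 CPM and 837 to 1025 CPM, with krt92 at 0 in every library, krt5 and krt4 highest, 13 of 14 below 0 and 0 called. Osteoclast markers summed to 1348 to 1619 CPM against 473 to 535 CPM, with 9 of 9 below 0, 2 called lower, and tnfrsf11a and mmp9 highest. Of these 9, 7 had an unadjusted p under 0.05 by edgeR and 7 had separate ranges, all lower in the positive gate. Of the 14 keratinocyte markers 3 had such a p and 3 had separate ranges, also lower there. Endothelial markers summed to 5.37 to 11.4 CPM against 0.254 to 2.88 CPM, led by tek and egfl7. Among them kdrl, tie1 and cldn5b were at 0 throughout. The 1 marker tested was lower without overlap (log2 fold change -6.66, unadjusted p under 0.05 by edgeR) and was not called. Pigment cell markers summed to 189 to 213 CPM against 9.15 to 48.3 CPM, led by tspan36 and csf1ra with pmela at 0. Of 10 markers 2 were tested, both below 0, and tspan36 was called lower. The gene csf1ra is also among the leukocyte markers. Nerve and Schwann cell markers, led by pmp22a and mbpb, summed to 223 to 256 CPM against 68.3 to 94.3 CPM, with 2 of 2 tested below 0 and pmp22a called lower, while sox10, mbpa, plp1b and elavl3 were at 0 in every library. The part of these cells in the values of wnt11, sfrp2 and wif1 was not tested.

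Inside the cell, 19 tested genes of Dishevelled and the destruction complex had a median log2 fold change of -0.31, with 5 above and 14 below 0. apc, the tumour suppressor gene of the complex, had 6.96, 7.72 and 2.25 CPM against 19.8, 26.8 and 2.82 CPM, with Geminin-positive replicate 3 inside the Geminin-negative range (log2 fold change 1.54, SE 0.98; adjusted p = 0.85 by edgeR). The casein kinase gene csnk1db had 61.5, 64.2 and 71.5 CPM against 47.5, 52.6 and 59 CPM, without overlap but with a log2 fold change of only -0.31 (SE 0.28; adjusted p = 0.9999 by edgeR). csnk1e had 5.73, 12.9 and 8.23 CPM against 0, 0 and 4.26 CPM, without overlap. The tankyrase gene tnksb overlapped between the gates (log2 fold change -0.81). The 13 tested nuclear cofactors had a median of 0.09, with 7 above and 6 below 0, and the β-catenin inhibitor gene ctnnbip1 had a log2 fold change of 0.24, beside -1.1 for the corepressor gene tle2c (SE 0.47 and 1.69; adjusted p = 0.9999 by edgeR).

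The list of feedback and target genes had 10 tested, 5 above and 5 below 0, with a median of -0.1. It shares matched genes with lists above: wif1, dkk1a, dkk1b and apcdd1l were also listed among the inhibitors, and znrf3 among the receptors and their turnover genes. bambia, which encodes a Bmp and activin pseudoreceptor that Wnt signalling can induce in mammals, had 175, 252 and 173 CPM in the negative gate and 357, 337 and 295 CPM in the positive gate. All 3 Geminin-positive values were higher (log2 fold change 0.72, SE 0.25; adjusted p = 0.3397 by edgeR), and the log2 fold change was 0.27 with scaling by total counts alone, where the median gene lay at -0.47. znrf3, a ubiquitin ligase gene that removes Frizzled receptors, had 54.9, 80.4 and 106 CPM against 83.7, 59.6 and 47.1 CPM. cd44a had 1.13, 14.7 and 46.1 CPM against 1.08, 1.37 and 8.27 CPM, and both genes overlapped between the gates. On the log2 scale cd44a was at -2.53, and at -1.15 without Geminin-negative replicate 3.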

How the data were processed

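RNA sequencing was done on 6 libraries, 3 per gate. The tables deposited by the authors give raw read counts for each gene. The submitters' processing notes name featureCounts 1.6.1, TopHat2 2.1.1, Trim Galore 0.4.1 and build danRer10. For strand setting, multiply mapped reads and annotation release the entry is: not given in the sources used here. The deposited tables also hold exon length per gene, another measure of the authors' counting tool, used for CPM per kb.

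Gene symbols were looked up by Ensembl identifier and in the RefSeq annotation of assembly GRCz12tu, used for names only: 16513 genes matched by unique symbol and 3773 by base name, chromosome and a neighbour. The test used edgeR 4.0.16 under R 4.3.3 (filterByExpr, TMM, robust quasi-likelihood test, Benjamini-Hochberg adjustment over 12855 genes, threshold 0.05). Standard errors are |log2 fold change| over the square root of F. Alternatives were DESeq2 1.42.0, limma-voom (limma 3.58.1), other scalings and filters, a replicate block and each library left out. The tests were also run on simulated data, and the share of changes recovered there is not reported here. Pairs of libraries differed by a chi-square of at least 94.91 per degree of freedom, so none was a duplicate. The floor of 3 counts covers counting error only.

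The members and gene lists were chosen with earlier results of these data known. Named are all members, 3 paralogs, the 4 genes of each Wnt list with the smallest p, and the checks gmnn and sp7; of each list of other cell types, the 2 most abundant genes and markers at 0. sp7 had 112 ± 34.8 and 200.3 ± 63.3 CPM (SD, n = 3 each; adjusted p = 0.4642 by edgeR). lck, cd4-1, cd8a and bglap were chosen after their values were seen. The planned motif search in promoters was not run, since no sequence was used here.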

Additional observations from a re-analysis of the deposited data

How the results depend on the processing

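Of the 10 Wnt genes 0 were called by the edgeR test as reported and 0 of those tested in each of the 13 alternatives; the stricter filter left 8, without tcf7 and lrp6. The biological coefficient of variation over all genes was 1.123. The 78 genes called over the whole tables became 185 with scaling by total counts alone (12 higher and 173 lower, against 16 and 62), 557 without a filter, 144 with at least 10 CPM in 3 libraries, 626 with DESeq2 and 134 with the replicate block, and 22 to 96 with 1 library left out: 32, 22 and 25 without Geminin-negative replicates 1 to 3, and 96, 34 and 40 without Geminin-positive replicates 1 to 3. Of the 72 tested genes of the Wnt role lists 0 were called. Without a filter 2 of 102 were called, beside 2.57% of all genes, and with DESeq2 2 of 72, beside 4.87%. With 1 library left out 0 to 1 were called (1 without Geminin-negative replicate 3), beside 22 to 96 over all genes tested. Of the 80 tested genes of the lists of other cells and states 11 were called, beside 0.607% of all genes tested. They became 45 of 106 without a filter, beside 2.57% of all genes, and 35 of 80 with DESeq2, beside 4.87%. By total counts alone 18 of 80 were called, beside 185 of all 12855 genes tested. The stricter filter gave 19 of 67, beside 144 of 6324. Limma-voom gave 18 of 80, beside 97 of 12855, and the replicate block 20 of 80, beside 134 of 12855. With 1 library left out 4 to 16 were called, beside 22 to 96 over all genes tested. The cause of these moves was not tested.

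Of 37 single genes 25 kept the sign of their log2 fold change in every alternative fit, and 26 of 467 values turned. By total counts alone these were axin1 (-0.22), nkd1 (-0.36), rspo2 (-0.21) and ctnnbip1 (-0.21); with limma-voom tcf7l1a (1.51) and ctnnb2 (0.14); with the replicate block ctnnb2 (0.16). With 1 library left out the log2 fold change ranged from -2.21 to 0.24 for tcf7l2, -0.13 to 0.63 for axin1, -0.33 to 0.4 for axin2, -0.24 to 0.16 for ctnnb1, -0.78 to 9.01 for lrp6, -0.32 to 0.92 for nkd1, -3.05 to 1.15 for wnt7bb, -1.39 to 0.13 for rspo4, -0.18 to 0.79 for rspo2, -0.1 to 0.6 for ctnnbip1 and -0.61 to 0.45 for ctnnb2. The cause was not tested.

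Whether the replicate numbers pair the libraries is not in the labels, and the data did not settle it, so they were not treated as pairs. Deviations of same-numbered libraries from their group means correlated at 0.182, 0.058 and 0.04 for replicates 1 to 3 (across genes), and Geminin-negative replicate 3 correlated more with Geminin-positive replicate 2 (0.052) than with replicate 3. The replicate block raised the calls from 78 to 134.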

Other observations

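Several Wnt genes outside the tested set were detected in few libraries. Of the 115 matched genes of the role lists, 92 had a count in Geminin-negative replicate 1 and 79 in Geminin-positive replicate 1, against 63 to 76 in the other 4 libraries. Of these, 7 had counts in both replicates 1 and 0 counts in the other 4 libraries: tle5, wnt7ba, fzd9a, wnt7aa, nkd2b, wnt4 and wnt6b. Among all 34289 genes, 870 had this pattern. Both replicates 1 also had the most genes with a count over the whole tables, 17875 and 15840, against 11977 to 13829 in the other 4 libraries. The pattern was not counted for other pairs of libraries. The ligand gene wnt4 had 172 counts in Geminin-negative replicate 1 and 42 in Geminin-positive replicate 1, wnt7aa had 94 and 117, and wnt7ba had 132 and 15. The canonical ligand gene wnt10b had 0, 77 and 99 counts in the negative gate and 1, 0 and 0 in the positive gate. The inhibitor gene dkk2 had 117 counts in Geminin-negative replicate 1 and 0 in every other library. Genes in this paragraph were chosen after their values were seen.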
